A study of Rattus norvegicus with 14 samples.

Results

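The genes described here mark the cells of blood vessels: 20 endothelial genes, from Pecam1 to Robo4, and 16 mural genes, from Pdgfrb to Mylk, which mark the pericytes and smooth muscle cells that wrap the endothelium. Members were taken by gene symbol, from a list chosen with earlier results of these data known. Among probe sets carrying that symbol alone, the brightest on average over the 14 arrays stands for each gene. In this way 34 of the 36 members were found among 22093 measured genes, namely 18 of 20 endothelial and 16 of 16 mural genes. Slco1a4, a transporter of organic anions, and Egfl7, a protein that endothelium secretes, lay only on probe sets that carry several symbols and have no value here.

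The arrays hold motor cortex RNA of male rats after spinal cord injury (SCI), 7 arrays from rats infused with MSC and 7 from rats infused with vehicle. The infusion was given through the femoral vein 24 hours after injury, the cortex was taken 3 days later, and all rats of both groups received cyclosporine A, an immunosuppressant, every day. The labels do not spell out MSC, which commonly stands for mesenchymal stem or stromal cells, nor the source of the cells. All rats were injured, so the comparison is between infusions and not between injured and uninjured cortex. No label says that each array came from its own rat, so p-values reflect the spread among arrays, and some of that spread may be technical. For MSC replicate 7 the description alone speaks of vehicle, and the array was kept as MSC.

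Endothelial cells line every brain vessel and form the blood-brain barrier through tight junctions, efflux pumps and nutrient transporters. Pericytes sit on capillaries within the same basement membrane and are held there by platelet-derived growth factor signalling through Pdgfrb, while smooth muscle cells ring arteries and arterioles and carry the contractile proteins. The transcription factor ERG and other factors of the ETS family drive much of the endothelial programme, and many contractile genes are driven by serum response factor, which binds the CArG box.

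Both motifs were looked for in the promoter windows of the members, from 250 bases before to 50 after the RefSeq start of each gene in the rat assembly GRCr8. The ETS core CAGGAAG, on either strand, was in 5 of 14 windows of 13 endothelial genes and in 1 of 11 windows of as many mural genes, against 4177 of all 33469 windows of that length (12.5%). The endothelial windows that held it were those of Erg, Emcn, Robo4, Abcg2 and Egfl7, and the mural one was that of Mylk. The 4 endothelial matches with a value on the arrays are shown because 2 of these genes, Erg and Emcn, recur in the results. Each is printed 5′ to 3′ on the strand of its gene, with the core or its reverse complement in capitals and up to 20 bases on either side.
Erg, chr11:48251621-48251667, minus strand: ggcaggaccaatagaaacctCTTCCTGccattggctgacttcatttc
Emcn, chr2:228564289-228564322, plus strand, cut off at the edge of the window: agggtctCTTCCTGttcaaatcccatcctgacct
Robo4, chr8:45308669-45308715, plus strand: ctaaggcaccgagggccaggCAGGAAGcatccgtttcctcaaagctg
Abcg2, chr4:89075310-89075356, plus strand: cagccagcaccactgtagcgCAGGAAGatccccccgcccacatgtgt
The CArG box was in 0 of 11 mural windows, 4 of them of contractile genes, and in 0 of 14 endothelial windows, against 548 of 33469 (1.6%). A match describes these letters and not a bound site, and a window without one says nothing about the factor. Not searched were Pecam1, Tek, Vwf, Mfsd2a, Ly6c, Sox17 and Sox18 among the endothelial and Pdgfrb, Tagln, Myh11, Higd1b and Mcam among the mural genes.

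Values are log2 expression levels from RMA, a method that subtracts background, equalises the arrays and combines the probes of each probe set into 1 value. Medians of the 14 arrays over all tested probe sets lay between 5.77 and 5.90, and a gene whose mean lies under the lowest of these is called dim here. Of the members, 5 were dim: Ly6c, Sox18, Des, Higd1b and Tbx18. On all 14 arrays, 16 of 18 endothelial and 12 of 16 mural members lay above the highest of the array medians. In bulk tissue, fewer cells of a type and less RNA per cell cannot be told apart.

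Some arrays stood apart in markers of other tissue. The mean of 9 choroid plexus markers was 9.85 in MSC replicate 4 and 9.81 in vehicle replicate 2 against 6.47 to 7.09 in the other 12 arrays. The mean of 11 meningeal fibroblast markers was 8.65 in MSC replicate 2 and 8.58 in vehicle replicate 2 against 7.42 to 7.90 in the other 12. Meninges hold vessels of their own, so list results that lean on these arrays, and those of several genes, are given with and without them. Replicates 6 and 7 of both groups had less of the spike-in control dap (7.45 to 8.12 against 8.35 to 9.92), although no label names a batch. All 5 blood markers had a higher mean in the MSC group, with a median difference of 0.34, and their array means ran from 9.08 to 9.93 in the MSC group and from 8.48 to 9.94 in the vehicle group. Neuronal and astrocyte markers, with 9 of 10 higher in each list, had median differences of 0.096 and 0.078. The part of these markers in the results below was not tested.

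The question was whether vessel genes of the motor cortex differ between MSC and vehicle, and whether endothelial and mural genes do so alike. No member passed the test, and the adjusted p of every member was 0.9999 in limma. Of all 68842 probe sets, 0 (0%) had an adjusted p below 0.05, while 689 had an unadjusted p below 0.05 with a higher and 1656 with a lower MSC mean. Endothelial genes had lower MSC means for 11 of 18 members, with a median difference, MSC minus vehicle, of -0.06, and mural genes for 11 of 16 with a median of -0.02. Neither sign held when single arrays were left out: the endothelial median ran from -0.09 to 0.0046, above 0 without MSC replicate 4, with 8 to 12 of 18 members lower, and the mural median from -0.08 without MSC replicate 2 to 0.01 without vehicle replicate 2. Among all genes 52.4% had a lower MSC mean and the median difference was -0.0038, while among the 14213 genes that were not dim 48.1% were lower. At an unadjusted p below 0.05, 2 endothelial members (Ly6c and Emcn) and 1 mural member (Kcnj8) had lower and 0 members higher MSC means, against 1.6% of all genes lower and 1.17% higher. The 95% interval of the difference lay within 1.5-fold either way for 15 of 18 endothelial and 16 of 16 mural members. The exceptions were Emcn, Itm2a and Abcg2. Among all genes it did so for 21595 of 22093, a larger share than among the members. The 5 dim members are counted as within 1.5-fold, although a small difference in their values does not bound the difference in RNA.

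**Figure D1:**
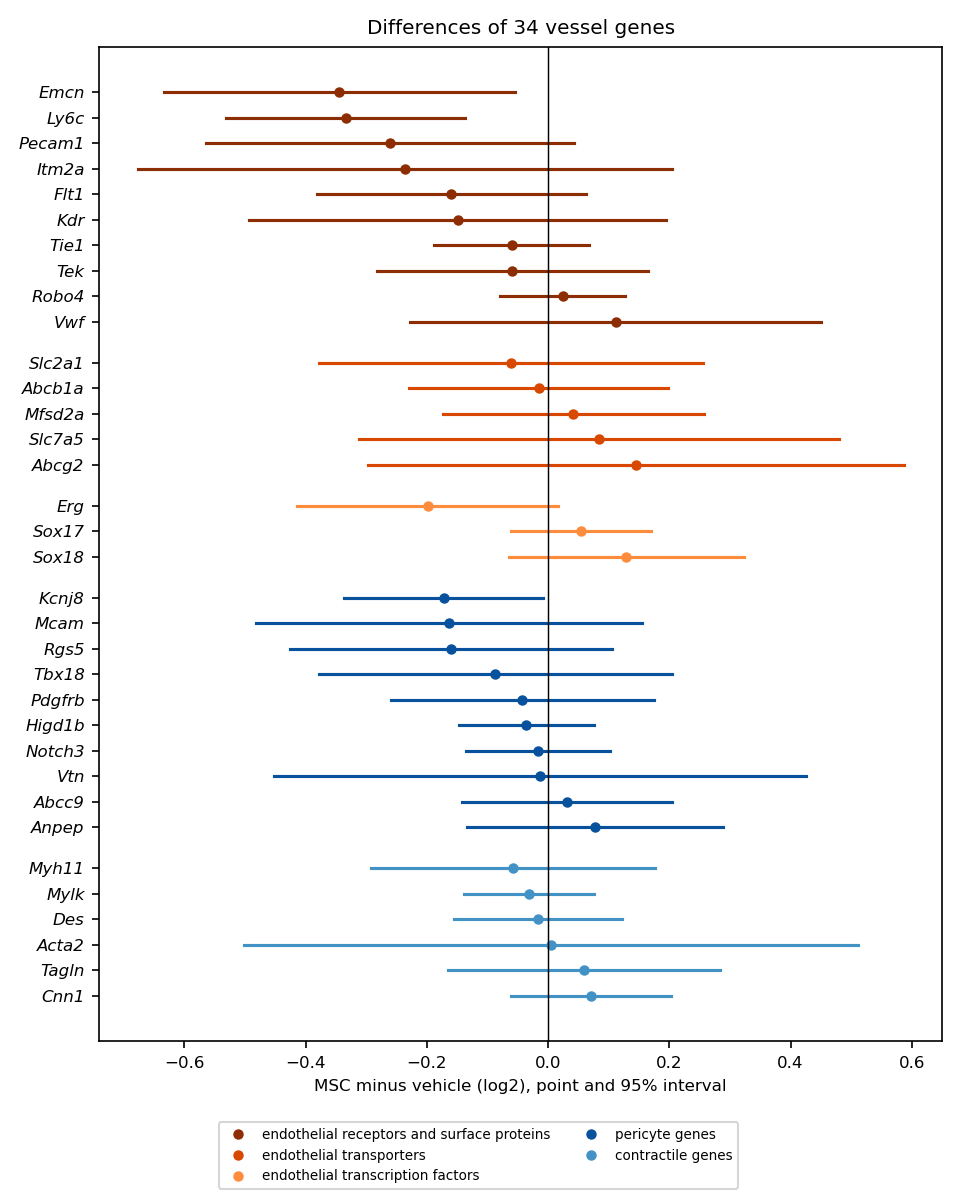
Difference in log2 value, MSC minus vehicle (x axis), for each of the 34 measured vessel genes (y axis), grouped and coloured by role. Points are the limma estimates over 7 and 7 arrays and lines their 95% intervals. The surface proteins lie mostly left of 0, and the intervals of 31 of 34 genes, 5 of them dim, stay within 1.5-fold. Among all genes 21595 of 22093 do so.

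Receptors and surface proteins of the endothelium leaned lowest. Of 10 members, 8 had lower MSC means, with a median difference of -0.15 that ran from -0.20 without vehicle replicate 1 to -0.08 without vehicle replicate 2. Within replicates 1 to 5 the median was -0.25, and within replicates 6 and 7 it was 0.04. Without MSC replicate 2 and vehicle replicate 2, the arrays rich in meningeal markers, it was -0.08.

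Emcn encodes endomucin, a sialomucin found mostly on the endothelium of capillaries and veins, and had the largest difference among the members. Its values ran from 7.65 over a median of 7.97 to 8.18 on the MSC arrays and from 7.86 over 8.29 to 8.74 on the vehicle arrays. All 7 MSC values were below the vehicle mean, but the groups overlapped, since vehicle replicates 1 and 3 stood at 7.90 and 7.86. The means were 7.95 ± 0.17 (SD, n = 7) and 8.30 ± 0.36 (SD, n = 7), a difference of -0.34 ± 0.14 (SE), or a 1.27-fold higher vehicle level (adjusted p = 0.9999, unadjusted p = 0.02286 in limma). Leaving out single arrays gave -0.42 to -0.27.

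Ly6c, which in the mouse encodes a surface protein of monocytes and endothelium, was the only member whose groups did not overlap, as happened for 0.0362% of all genes (8 of 22093). The MSC arrays ran from 4.43 over 4.94 to 5.06 and the vehicle arrays from 5.08 over 5.15 to 5.38. The difference was -0.33 ± 0.09 (SE), with an unadjusted p of 0.002468 and an adjusted p of 0.9999 in limma. This probe set is dim and its ID is marked unmapped. The other 3 probe sets with this symbol differed by -0.0029 to 0.04, and the mean of all 4 by -0.07.

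Pecam1, the junctional adhesion molecule also known as CD31, ran from 7.70 over 8.16 to 8.45 on the MSC arrays and from 8.04 over 8.40 to 8.86 on the vehicle arrays. The groups overlapped over much of their range, with 5 MSC arrays below the vehicle mean. Its difference was -0.26 ± 0.14 (SE, adjusted p = 0.9999 in limma), and -0.19 without MSC replicate 4, the lowest array. Itm2a, a membrane protein enriched in brain endothelium of rodents, was the most variable surface gene, with an SD of 0.53 among the MSC arrays. It ran from 10.97 over 11.95 to 12.62 on the MSC arrays and from 11.62 over 12.17 to 12.55 on the vehicle arrays. The lowest MSC value was that of replicate 1, and the difference of -0.24 ± 0.21 (SE, adjusted p = 0.9999 in limma) was -0.07 without it.

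The receptors of vascular endothelial growth factor and of the angiopoietins also had lower MSC means with overlapping groups. Flt1, a receptor of vascular endothelial growth factor that also acts as a decoy, ran from 9.40 over 9.52 to 9.96 on the MSC and from 9.52 over 9.73 to 10.06 on the vehicle arrays. Its difference was -0.16 ± 0.10 (SE, adjusted p = 0.9999 in limma), and 6 of 7 MSC arrays were below the vehicle mean. Kdr, the main signalling receptor for the same ligand, ran from 8.01 over 8.22 to 8.54 on the MSC and from 8.01 over 8.47 to 9.16 on the vehicle arrays. The highest of these values was vehicle replicate 2, and without it the difference of -0.15 ± 0.16 (SE, adjusted p = 0.9999 in limma) was -0.03. Tek, the angiopoietin receptor, and Tie1, its partner, each differed by -0.06. The Tek difference was 0.0089 without MSC replicate 4 and 0.12 within replicates 6 and 7, whereas that of Tie1 kept its sign in both. Robo4, a receptor that stabilises vessels, differed by 0.02, and Vwf, the clotting protein stored in endothelium, by 0.11.

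**Figure D2:**
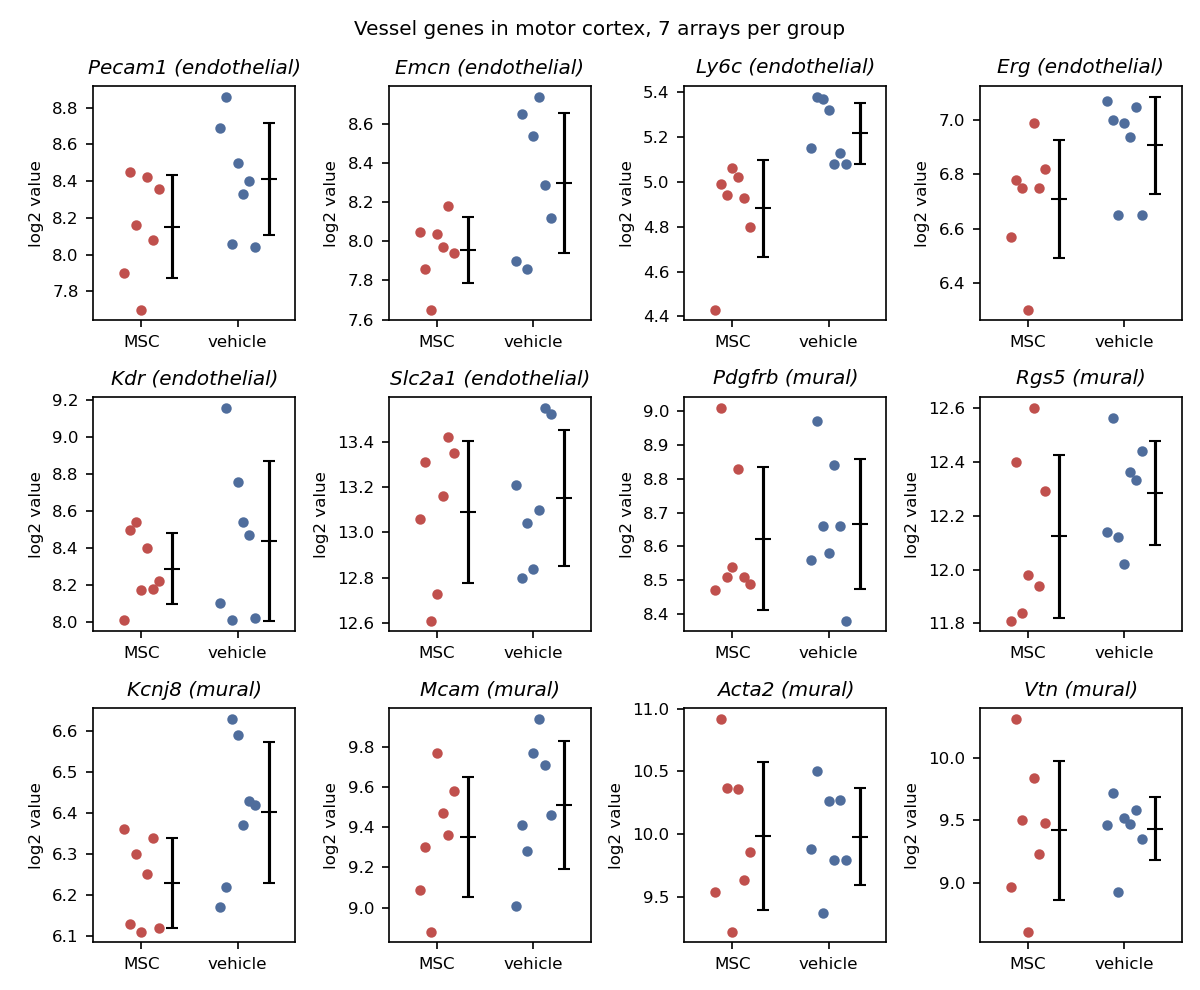
Log2 value (y axis of each panel) of 12 vessel genes on every array, with 7 MSC arrays in red and 7 vehicle arrays in blue. Black bars give the mean and SD of each group; only the panel of Ly6c shows groups that do not overlap, and the axes do not start at 0.

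Transporters of the blood-brain barrier had no common direction. MSC means were lower for 2 of 5 members, and the median difference was 0.04, with a range of -0.02 to 0.12 when single arrays were left out. Slc2a1, the glucose transporter of the barrier, ran from 12.61 over 13.16 to 13.42 on the MSC and from 12.80 over 13.10 to 13.55 on the vehicle arrays, and the groups covered almost the same range. Its difference was -0.06 ± 0.15 (SE, adjusted p = 0.9999 in limma), which leaves a 95% interval of -0.38 to 0.26. Abcg2, an efflux pump, was the most variable transporter, and ran from 6.46 over 7.22 to 7.65 on the MSC and from 6.58 over 7.18 to 7.96 on the vehicle arrays. The vehicle arrays spread over the wider range, with 3 of them at 6.58 to 6.72, and the difference was 0.15 ± 0.21 (SE, adjusted p = 0.9999 in limma), or 0.29 without vehicle replicate 1, the highest. The efflux pump Abcb1a differed by -0.02, the lipid transporter Mfsd2a by 0.04 and the amino acid transporter Slc7a5 by 0.08.

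Of the endothelial transcription factors, Erg ran from 6.30 over 6.75 to 6.99 on the MSC and from 6.65 over 6.99 to 7.07 on the vehicle arrays. On 6 of 7 MSC arrays it was below the vehicle mean, and the difference was -0.20 ± 0.10 (SE, adjusted p = 0.9999 in limma), or -0.13 without MSC replicate 4. Sox17 and the dim Sox18, both SOX factors of arterial and lymphatic development, had higher MSC means, by 0.05 and 0.13.

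Pericyte genes had lower MSC means for 8 of 10 members, with a median difference of -0.04. That median was -0.13 without MSC replicate 2 and 0.01 without vehicle replicate 2, the arrays rich in meningeal markers, and -0.05 without both. Pdgfrb, the receptor that holds pericytes to capillaries, ran from 8.47 over 8.51 to 9.01 on the MSC and from 8.38 over 8.66 to 8.97 on the vehicle arrays. The highest array of either group was its replicate 2, and the difference was -0.04 ± 0.10 (SE, adjusted p = 0.9999 in limma). It was -0.11 without MSC replicate 2 and 0.01 without vehicle replicate 2. Rgs5, a regulator of G protein signalling that is abundant in pericytes, ran from 11.81 over 11.98 to 12.60 on the MSC and from 12.02 over 12.33 to 12.56 on the vehicle arrays. Only 4 of 7 MSC arrays were below the vehicle mean, and the difference was -0.16 ± 0.13 (SE, adjusted p = 0.9999 in limma).

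Kcnj8 and Abcc9 encode the pore and the regulatory subunit of the potassium channel that pericytes open when cellular ATP is low, and the 2 genes are neighbours on chromosome 4. Kcnj8 ran from 6.11 over 6.25 to 6.36 on the MSC and from 6.17 over 6.42 to 6.63 on the vehicle arrays. All 7 MSC values were below the vehicle mean, though vehicle replicates 1 and 2 lay within the MSC range at 6.17 and 6.22. Its difference was -0.17 ± 0.08 (SE), with an unadjusted p of 0.04113 and an adjusted p of 0.9999 in limma. For Abcc9 the difference was 0.03 ± 0.08 (SE, adjusted p = 0.9999 in limma), and across arrays the pair correlated at 0.17 within groups.

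Mcam, an adhesion molecule of pericytes that endothelium also carries, ran from 8.88 over 9.36 to 9.77 on the MSC and from 9.01 over 9.46 to 9.94 on the vehicle arrays. The groups overlapped over most of their range, and the difference was -0.16 ± 0.15 (SE, adjusted p = 0.9999 in limma). Anpep, the surface aminopeptidase CD13, ran from 6.31 over 6.53 to 7.01 on the MSC and from 6.35 over 6.58 to 6.66 on the vehicle arrays. Its high value was MSC replicate 2, and the difference of 0.08 ± 0.10 (SE, adjusted p = 0.9999 in limma) was 0.01 without that array. Vtn, which encodes the matrix protein vitronectin that pericytes make, ran from 8.61 over 9.48 to 10.31 on the MSC and from 8.93 over 9.47 to 9.72 on the vehicle arrays. The lowest and highest of all 14 values were both MSC arrays, replicates 4 and 2, and the difference was -0.01 ± 0.21 (SE, adjusted p = 0.9999 in limma). It was 0.12 without MSC replicate 4 and -0.16 without MSC replicate 2. Of the others, Tbx18, a transcription factor of mural cells, differed by -0.09, Higd1b by -0.04 and Notch3, the Notch receptor of mural cells, by -0.02.

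Contractile genes of smooth muscle were split, with lower MSC means for 3 of 6 and a median difference of -0.0061. Acta2, smooth muscle actin, was the most variable mural gene and ran from 9.22 over 9.86 to 10.92 on the MSC and from 9.37 over 9.88 to 10.50 on the vehicle arrays. Replicate 2 was the highest array in both groups, and the difference was 0.0047 ± 0.24 (SE, adjusted p = 0.9999 in limma), with a 95% interval of -0.50 to 0.51. It was -0.15 without MSC replicate 2 and 0.13 without MSC replicate 4. Cnn1, the actin-binding protein calponin, ran from 5.85 over 6.01 to 6.15 on the MSC and from 5.74 over 5.94 to 6.02 on the vehicle arrays. The groups overlapped, and the difference was 0.07 ± 0.06 (SE, adjusted p = 0.9999 in limma). Tagln, an actin-binding protein, differed by 0.06, Myh11, smooth muscle myosin, by -0.06, the kinase Mylk by -0.03 and the dim Des, desmin, by -0.02. The median over the 6 genes was -0.05 without MSC replicate 2 and 0.05 without vehicle replicate 2.

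Averaged over the members of a list, each array has a single vessel level. The endothelial mean was 8.35 ± 0.12 (SD, n = 7) in the MSC group, with array values from 8.16 over 8.39 to 8.47, and 8.42 ± 0.11 (SD, n = 7) in the vehicle group, from 8.25 over 8.45 to 8.57. The groups overlapped for most of that range, and the difference was -0.07 ± 0.06 (SE). The mural mean was 7.60 ± 0.15 (SD, n = 7) in the MSC group, from 7.43 over 7.58 to 7.87, and 7.64 ± 0.10 (SD, n = 7) in the vehicle group, from 7.52 over 7.66 to 7.83, a difference of -0.03 ± 0.07 (SE). Endothelial minus mural level within the array was 0.75 ± 0.10 (SD, n = 7) and 0.78 ± 0.08 (SD, n = 7), so the 2 lists differed between groups by only -0.04 ± 0.05 (SE) relative to each other. Within replicates 1 to 5 that value was -0.09, and within replicates 6 and 7 it was 0.10. Over all 14 arrays the differences between groups in these means are smaller than the SD between arrays, and no p is given for a mean over chosen genes.

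Arrays differed in vessel level more than groups did. Endothelial and mural means moved together across the 14 arrays after group means were removed, with Pearson r = 0.72 and Spearman rho = 0.75, and r = 0.74 in the MSC and 0.71 in the vehicle group alone. Without the 2 arrays farthest from the median endothelial mean, MSC replicate 4 and vehicle replicate 3, r was 0.60, and it was 0.71 without MSC replicate 2 and vehicle replicate 2. MSC replicate 4, rich in choroid plexus markers, was lowest in both lists. Vehicle replicate 2, also rich in them, had the highest endothelial mean, 8.57, and the highest mural mean of its group, 7.83. The 14 points share tissue pieces and the scaling of whole arrays, so these correlations are descriptions without a p. With the array median, r was -0.51 for the endothelial means, -0.60 in the MSC and -0.39 in the vehicle group. For the mural means it was -0.41, -0.82 and 0.30 in that order. The part of scaling in the vessel levels was not tested. Endothelial means also moved with the means of some other cell types. With microglial markers r was 0.67 over 14 arrays, 0.74 in the MSC and 0.59 in the vehicle group, and 0.67 without the same 2 farthest arrays. With neuronal markers r was 0.59, 0.92, 0.20 and 0.33 in that order. Over 14 arrays it was 0.33 with astrocyte, 0.21 with blood and -0.08 with oligodendrocyte markers. Meningeal fibroblast markers gave 0.47 over 14 arrays, 0.33 in the MSC and 0.63 in the vehicle group, and 0.49 without the farthest arrays. For choroid plexus markers r was -0.15, -0.68, 0.45 and 0.38 in that order.

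**Figure D3:**
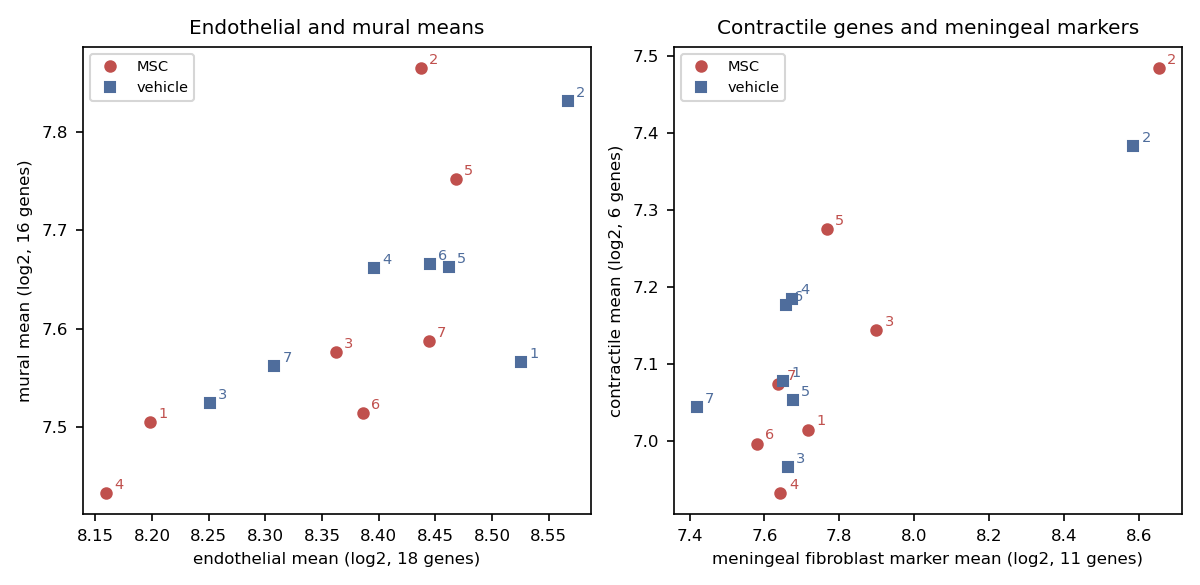
Left, mural mean against endothelial mean of each array, and right, mean of the 6 contractile genes against the mean of 11 meningeal fibroblast markers, all in log2 units, with replicate numbers beside the points (red circles MSC, blue squares vehicle). On the left the arrays of both groups lie along 1 band, and on the right replicate 2 of each group lies far above the other 12 arrays in meningeal markers, with the highest contractile means.

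Contractile genes followed the meningeal markers, though not these alone. Their array means had r = 0.85 and rho = 0.73 over the 14 arrays, and r = 0.47 without the 2 arrays farthest out, MSC replicate 2 and vehicle replicate 2. The whole mural list had 0.81 and 0.40 with the same markers. For contractile genes, r was 0.61 and 0.47 with microglial, 0.59 and 0.39 with blood, and 0.31 and 0.46 with neuronal markers. It was 0.24 and -0.09 with astrocyte, 0.05 and -0.51 with choroid plexus, and -0.35 and -0.07 with oligodendrocyte markers. The median r over the 15 pairs of contractile genes was 0.54, and 9 of 15 were above 0.5, whereas without those 2 arrays the median was 0.13 and 1 pair was above 0.5. Tagln with Myh11 went from 0.81 to 0.32, and Pdgfrb with Tagln from 0.79 to 0.40. Acta2 with Tagln, at 0.88, was still 0.82 without those arrays. For the endothelial list, the median over 153 pairs was 0.25 with all arrays and 0.24 without those 2. Over all pairs of genes that were not dim the median was 0.03 on all 14 arrays. Of these pairs 8.52% were above 0.5, against 27 of 153 endothelial and 38 of 120 mural pairs. Without those 2 arrays, 30 endothelial and 16 mural pairs were above 0.5. The share over all genes was not computed without them, so these 2 counts have no share to stand beside.

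Within the endothelial list a few genes varied together. Pecam1, Tek, Erg and Abcb1a correlated with the mean of the other endothelial members at 0.91, 0.90, 0.89 and 0.79. Pecam1 with Erg reached 0.87 with all arrays and 0.95 without MSC replicate 2 and vehicle replicate 2, and Tek with Erg was 0.86 in both. Emcn at 0.08, Ly6c at 0.11, Vwf at 0.10 and Slc2a1 at 0.04 hardly followed the rest of their list. Emcn and the dim Ly6c, the members with the largest differences between groups, hardly tracked the overall endothelial level of an array. Pecam1, with the next largest difference at -0.26, and Erg at -0.20 did track it. Itm2a, at -0.24, lay between with r = 0.49. In the mural list Tagln, Vtn, Acta2 and Pdgfrb followed the rest at 0.88, 0.87, 0.84 and 0.83, while Kcnj8 at -0.36 and Mcam at -0.07 did not. In all, 7 of 18 endothelial and 10 of 16 mural members exceeded 0.5, and 7 and 8 did so without the 2 arrays rich in meningeal markers. With MSC replicate 4 left out as well, 7 and 6 did so. Vtn stood close to genes of both lists, with r = 0.94 to Acta2 and 0.81 to Pecam1, and 0.91 and 0.84 without those arrays.

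**Figure D4:**
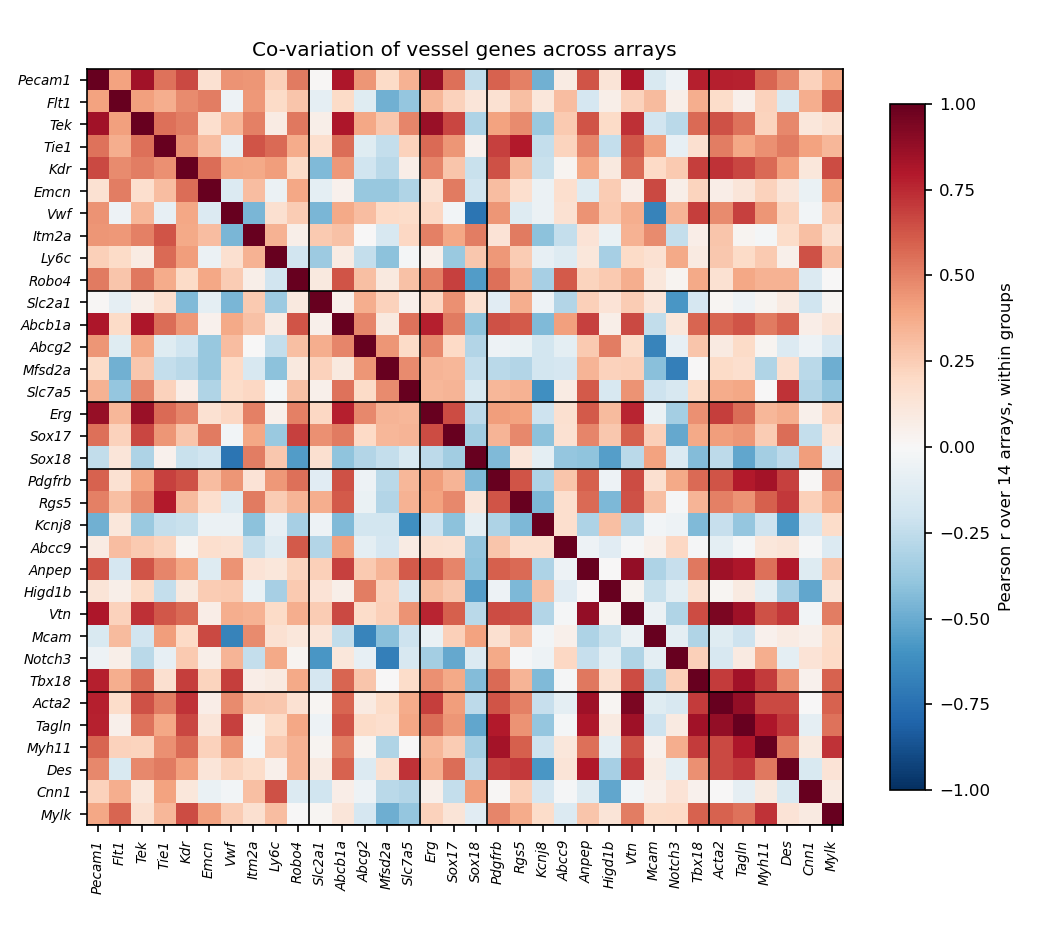
Pearson r between the 34 vessel genes over 14 arrays after group means were removed, with red above and blue below 0, genes in the order of their roles and black lines between roles. Pecam1, Tek, Abcb1a and Erg form a red block with Vtn, Acta2 and Tagln, whereas Emcn is red with other genes (0.66 with Mcam, 0.56 with Kdr) and Kcnj8 is blue with most genes.

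Other genes of vessel signalling and structure were counted in the same fit, and none of them passed (adjusted p = 0.9999 in limma for each gene named here). Ligands had lower MSC means for 10 of 19, and the 2 with the smallest p were Dll4, the Notch ligand of arteries and tip cells, and Vegfa, the main vascular growth factor. Dll4 averaged 5.94 ± 0.13 (SD, n = 7) in the MSC and 6.17 ± 0.16 (SD, n = 7) in the vehicle group, a difference of -0.23 ± 0.08 (SE), with all 7 MSC arrays below the vehicle mean. Vegfa differed by 0.14 ± 0.09 (SE), with 7 MSC arrays above the vehicle mean. Of other vascular receptors 11 of 17 were lower, and Reck, a partner in WNT7 signalling to the barrier, and Nrp1, a co-receptor for vascular endothelial growth factor, had higher MSC means by 0.16 ± 0.07 and 0.32 ± 0.15 (SE). Many of these ligands and receptors are also made by neurons or glia, so their values describe the tissue and not vessel cells alone.

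Further endothelial genes had lower MSC means for 16 of 21, and 3 of these had an unadjusted p below 0.05 and a lower mean, against 1.6% of all genes. Cldn5, the main tight junction protein of the barrier, averaged 8.42 ± 0.16 (SD, n = 7) in the MSC and 8.72 ± 0.20 (SD, n = 7) in the vehicle group. Its difference was -0.30 ± 0.09 (SE, adjusted p = 0.9999 in limma), with all 7 MSC arrays below the vehicle mean. Cd93, a surface receptor of endothelium, differed by -0.22 ± 0.08 (SE), again with 7 of 7 arrays below. Over the list the median was -0.04, with a range of -0.07 to -0.02 when single arrays were left out.

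Among genes of activated endothelium 4 of 8 had lower MSC means. The dim selectin gene Sele differed by -0.08 ± 0.04 (SE) and Thbd, thrombomodulin, by 0.10 ± 0.08 (SE). Arterial and venous genes were lower for 6 of 12, with Hey1, a Notch target of arteries, at 0.24 ± 0.09 (SE) and Efnb2, the arterial ephrin, at -0.17 ± 0.10 (SE). Other mural genes were lower for 14 of 25, with Art3 at -0.11 ± 0.06 (SE) and Gucy1a1, a subunit of the nitric oxide receptor, at -0.14 ± 0.11 (SE). Basement membrane genes, which both vessel cell types secrete, were lower for 3 of 12, with Agrn, agrin, at 0.20 ± 0.10 (SE) and Col4a2, a collagen chain, at 0.08 ± 0.05 (SE).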

How the data were processed

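The authors deposited normalised log2 values, for which the submitters' processing notes name RMA and Affymetrix Expression Console. Neither their versions nor the genome build are stated in the sources at hand. Per the labels' protocols, each array received target from 100 ng of total RNA. RMA pulls differences of dim probe sets towards 0.

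Of 70580 probe sets, 1738 controls (IDs starting AFFX, ERCC or RG) were left out. For the other 68842, the groups were compared without covariates in limma (version 3.58.1, under R 4.3.3) by lmFit and eBayes, after a test on simulated data. Adjustment by Benjamini-Hochberg ran over all 68842, with a threshold of 0.05. The number of arrays limits the precision. Any pair of arrays correlated at 0.99 to 0.997, and 0 pairs were identical. Gene symbols came from the platform annotation, which names 1 gene for 23446 probe sets, several for 505 and none for 44891, updated through RefSeq.

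Members, lists, tests and alternatives were chosen with earlier results of these data known. Full values are given for the 5 endothelial and 5 mural members with the smallest p, the 2 per list with the largest SD within groups, and Pecam1, Slc2a1, Kdr, Pdgfrb, Acta2 and Rgs5. Of each other list the 2 genes with the smallest p are named, so counts of their arrays restate that choice. Correlations used deviations from group means. Alternatives changed scaling, filters, probe set choice, the batch, the label of MSC replicate 7 and the arrays used.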

Additional observations from a re-analysis of the deposited data

Results flagged for a closer look

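Of 78 groups of 7 arrays examined for the 34 members and the list means, 7 held a lowest or highest array whose gap to the next, divided by the range of the group, exceeded Dixon's 95% critical value. Chance gives about 1 in 20. Replicate 2 gave 3 of them, all high mural values on the arrays rich in meningeal markers: Tagln stood at 7.55 in MSC replicate 2 (next 7.11), Myh11 at 8.18 in vehicle replicate 2 (next 7.84) and Tbx18 at 6.27 in vehicle replicate 2 (next 5.67). The part of meningeal tissue in these values was not tested. Abcg2 stood at 6.46 in MSC replicate 4 (next 7.17), the array of the MSC group rich in choroid plexus markers. Ly6c, a dim gene, stood at 4.43 in MSC replicate 1 (next 4.80), and its difference was -0.26 without that array. Higd1b stood at 5.19 in vehicle replicate 7 (next 5.29), a dim gene. Endothelial minus mural mean stood at 0.96 in vehicle replicate 1 (next 0.80).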

How the results depend on the processing

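Of 261 recomputed list values and counts under 29 alternatives, 258 moved by less than 1 SD between arrays, or less than 1.5 times for counts. Many alternatives could not move a difference that far. Keeping RG probe sets, other limma options, a replicate block and a batch term leave every difference as it was. Leaving out 1 of 7 arrays cannot shift a mean difference by 1 SD. The alternatives without the array highest in choroid plexus or meningeal markers repeat those without MSC replicate 4 or 2. These shares, here and for members below, therefore do not measure stability. Some values that moved little still turned sign. The endothelial median of -0.06 was 0.0046 without MSC replicate 4 (the array highest in choroid plexus markers) and 0.0259 with replicates 6 and 7 alone, where the endothelial array mean difference was 0.0382 instead of -0.07. The mural median of -0.02 was 0.0112 without vehicle replicate 2, and the mural array mean difference of -0.03 was -0.078 without MSC replicate 2. With replicates 6 and 7 alone, 1 probe set passed the adjusted p instead of 0, and endothelial minus mural level was 0.1014 instead of -0.04. The count of mural members with a lower MSC mean was 6 to 13 of 16 when single arrays were left out, 6 without vehicle replicate 2. Of 981 member differences 975 moved by less than 1 SD; the others were Ly6c at -0.07 with its probe sets averaged, and Flt1 at 0.20, Robo4 at 0.12, Des at -0.16, Anpep at -0.13 and Higd1b at 0.06 with replicates 6 and 7 alone. Leaving out single arrays turned the sign of 14 of 34 members (5 of 18 endothelial, 9 of 16 mural), and scaling turned that of Abcb1a, Vtn and Notch3. The lean of all probe sets towards lower MSC means (689 higher, 1656 lower at an unadjusted p below 0.05 in limma) was 1309 and 1290 after repeated quantile normalization. Deviations of same-numbered arrays correlated at -0.20 to 0.33, 2 of 7 above 0.1 and 2 of 7 highest with their own number. Whether replicate numbers pair the arrays cannot be told from these values. A replicate block cannot change a difference, since each number occurs once per group, and bears only on the spread. With it 0 probe sets passed, with 678 higher and 1600 lower at an unadjusted p below 0.05 in limma. With MSC replicate 7 counted as vehicle, 0 passed. Alternatives that drop MSC replicate 2 with vehicle replicate 2, with or without MSC replicate 4, were chosen after seeing the data. Dim signal limits Ly6c, Sox18, Des, Higd1b and Tbx18, for which a small difference in value does not bound the difference in RNA.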
